A study of Mus musculus with 2 samples.

Results

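The Gimap cluster is a run of 8 genes on mouse chromosome 6 that encode GTPases of the immunity-associated proteins, a family of GTP-binding proteins found mostly in lymphocytes. The members were Gimap8, Gimap9, Gimap4, Gimap6, Gimap7, Gimap1, Gimap5 and Gimap3, in genome order, out of 19186 protein-coding genes of at least 2 kb. They were chosen by name and position, with the cover of this locus in these data already known, so the levels given here are a description and no test is made on them. The cluster was measured from the start of Gimap8 to the end of Gimap3 with 20 kb on either side, chr6:48627186-48790851 on the mm10 build, together with every called region that overlaps it.

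The mark was H3K36me2, dimethylation of lysine 36 of histone H3, profiled in regulatory T (Treg) cells of the spleen on the C57BL/6 background. There were 2 libraries, 1 from mice with a conditional knockout of Nsd2 in Treg cells (KO) and 1 from wild-type mice (WT). The driver of the deletion, the age and sex of the animals, any pooling and the antibody are not stated in the labels. Since each genotype is a single library, the differences below lack any replicate error, and p-values are left out.

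NSD2 is a methyltransferase that places H3K36me2, a mark found over transcribed genes and the chromatin around them. GIMAP proteins bind GTP through an AIG1-type domain, sit on the membranes of organelles or in the cytosol, and act in the survival of resting T and B cells. Loss of Gimap5 in mice and rats leads to a shortage of lymphocytes.

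The KO list held 39745 regions from 14789700 tags, with 5.89% of tags inside regions, and the WT list 54527 regions from 17158154 tags, with 7.17% inside regions. A region had to reach 12 tags per 500 bp peak in KO and 13 in WT, or 8.11 and 7.58 once scaled to 10000000 tags, so the caller was stricter in the shallower KO library. Over chromosomes 1 to 19 and X, KO regions covered 74.3% of the WT length. As a check of the labelled cells, 4 of 5 T cell markers and 4 of 5 Treg markers held a region in each library. Over all coding genes, 45.1% did in KO and 49.4% in WT, so holding a region says little of cell type. Foxp3 was covered to 29.9% in KO and 17.6% in WT, and Cd28 and Ctla4 to 0 in each. Among markers of other cells, NK and CD8 T cell genes held 0 bp in KO and 2204 bp in WT (3 of 5 genes), with Cd8a and Ncr1 at 0 in each, and erythroid genes 0 bp in KO and 761 bp in WT (1 of 3). B cell genes held 2571 bp in KO and 1922 bp in WT (2 of 4, with Ms4a1 at 0), with Cd79b covered to 48.8% in KO and 39.8% in WT and Cd79a to 22.9% in KO and 14.7% in WT. Myeloid genes held 2266 bp in KO and 3000 bp in WT (2 of 4, with Lyz2 and Cd14 at 0). The part of other cells in the values below was not tested.

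The sequences at the starts of 4 members are shown as examples of different cover from gene to gene. Over Gimap1 the KO regions break beside the start site. The starts of Gimap5 and Gimap9 lie inside a region in each library, and the start of Gimap4 lies outside regions in each. The sequences run from 250 bases before to 50 after the RefSeq start on GRCm38.p6. They are given 5′ to 3′ on the strand of the gene, the plus strand for all 4. Capitals mark the ETS core AGGAAG and the RUNX motif TGTGGT on either strand, the binding motifs of transcription factor families of lymphocytes.
Gimap1, chr6:48738797-48739096: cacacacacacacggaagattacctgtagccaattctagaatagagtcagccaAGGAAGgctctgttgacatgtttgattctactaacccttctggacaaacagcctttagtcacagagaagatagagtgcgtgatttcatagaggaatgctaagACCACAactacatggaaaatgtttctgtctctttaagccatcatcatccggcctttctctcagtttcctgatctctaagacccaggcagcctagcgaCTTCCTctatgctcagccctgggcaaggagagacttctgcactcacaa
Gimap5, chr6:48745947-48746246: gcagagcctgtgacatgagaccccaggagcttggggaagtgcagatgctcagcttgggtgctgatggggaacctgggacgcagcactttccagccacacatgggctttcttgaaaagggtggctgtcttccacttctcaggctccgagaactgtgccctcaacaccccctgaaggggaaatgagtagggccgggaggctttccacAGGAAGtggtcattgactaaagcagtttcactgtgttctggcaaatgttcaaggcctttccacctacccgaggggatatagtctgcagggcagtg
Gimap9, chr6:48675885-48676184: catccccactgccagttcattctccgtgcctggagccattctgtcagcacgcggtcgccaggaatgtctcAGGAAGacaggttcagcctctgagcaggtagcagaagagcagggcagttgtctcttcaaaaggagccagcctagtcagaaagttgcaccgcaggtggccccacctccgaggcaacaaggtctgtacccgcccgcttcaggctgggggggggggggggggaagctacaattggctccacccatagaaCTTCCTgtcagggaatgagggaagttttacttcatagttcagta
Gimap4, chr6:48684328-48684627: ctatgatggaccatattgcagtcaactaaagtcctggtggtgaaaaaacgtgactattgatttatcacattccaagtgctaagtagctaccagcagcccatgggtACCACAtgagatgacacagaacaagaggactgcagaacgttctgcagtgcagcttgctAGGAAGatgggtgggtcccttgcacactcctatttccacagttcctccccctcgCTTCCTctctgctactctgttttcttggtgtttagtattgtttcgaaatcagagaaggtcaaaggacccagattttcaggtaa
Of these windows, KO regions covered 221 bases at Gimap1 and 300 at each of Gimap5 and Gimap9, and WT regions 300 at each of the 3. At Gimap4, KO and WT regions each covered 0 of the bases. The RefSeq table gave 9 start windows for the 8 members, 2 of them for Gimap8. AGGAAG was present in 7 of the 9, against 34.1% of 18994 windows of the same length at coding genes. TGTGGT was present in 3 of the 9 (Gimap1, Gimap4 and Gimap7), against 14.3% of all. Of the other motifs searched on either strand, CCACCC of KLF factors was in 5 (35.8% of all), CTTTGA of TCF7 and LEF1 in 2 (13.9%), TAAACA of forkhead factors in 2 (10.4%) and TGANTCA of AP-1 in none (6.59%). The windows were poor in CpG, with 2 to 8 CpG each against a median of 15 over all windows. A match is a run of letters and not a measured binding site.

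Over the whole cluster, the KO library had more of the DNA inside H3K36me2 regions than the WT library, except among the higher-scoring 50% of regions, while the genome-wide total was lower in KO. KO regions covered 68767 bp or 42.0% of the 163666 bp window, and WT regions 56790 bp or 34.7%, a difference of 7.32 percentage points. KO cover was thus 121% of WT cover here, against 74.3% genome-wide. The difference became -2.61 points, with 27.6% in KO and 30.2% in WT, when each list was limited to its higher-scoring 50%. That filter removed 10 of 25 KO and 6 of 28 WT regions of the window, among them 3 of the 7 KO regions and 1 of the 4 WT regions of at least 4 kb. Over the whole lists it removed 49.4% of KO and 46.5% of WT regions, and 33.1% of KO and 28.0% of WT regions of at least 4 kb.

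The cover of the cluster was high for a stretch of its length in each library. When chromosomes 1 to 19 and X were cut into 16063 other stretches of 163666 bp, 1 had at least as many covered bases as the cluster in KO and 9 did in WT. The median stretch was covered to 0% in KO and 0.31% in WT. Of the 433 other stretches with a mean cover of at least 10%, 31.4% were more covered in KO than in WT. A difference toward KO of at least the size seen at the cluster was found in 0.924% of them (4 stretches). A difference in points can grow with cover, and few of the 433 stretches were covered as much as the cluster. This share therefore does not compare like with like.

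**Figure D1:**
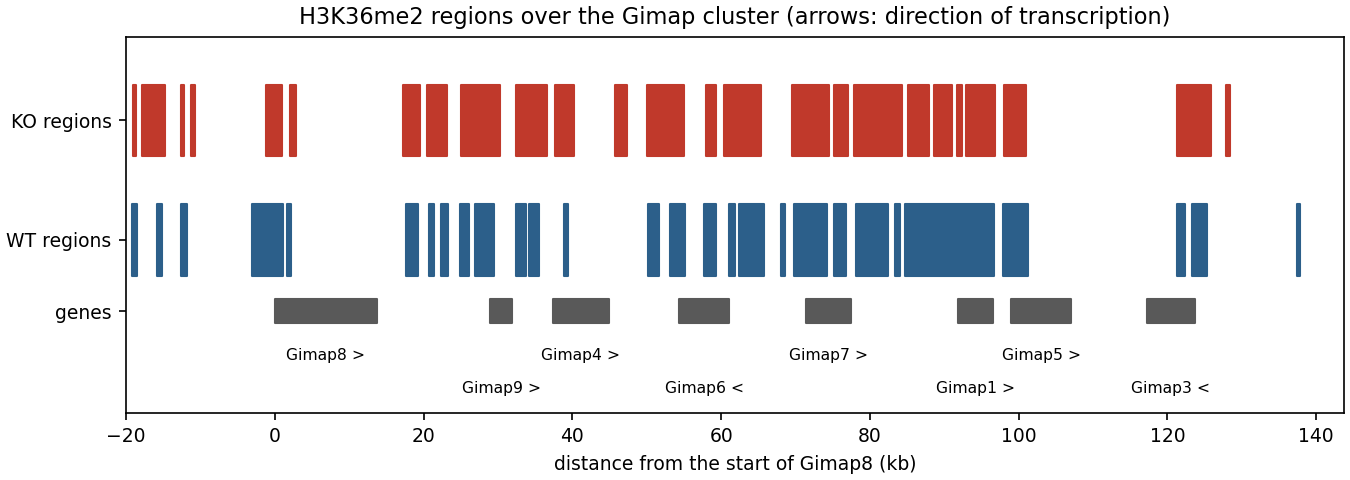
Called H3K36me2 regions of KO (top, red) and WT (middle, blue) over the Gimap cluster with 20 kb on either side, and the 8 gene bodies (grey), by distance in kb from the start of Gimap8. Regions crowd between Gimap8 and Gimap5 and are absent in each library from the 19908 bp that run from inside Gimap5 to inside Gimap3.

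There were 25 KO regions with a median length of 2537 bp and 28 WT regions with a median of 1303 bp, against a median of 500 bp over all regions of each library. The order of the numbers changed with the filter, with 19 KO and 18 WT regions of at least 1000 bp, and 25 of each at a common tag threshold. Regions of at least 4 kb numbered 7 in KO and 4 in WT. The longest KO region was 6515 bp (chr6:48724984-48731499) and the longest WT region 11999 bp (chr6:48731839-48743838), ranking 99th and 10th by length among the regions of their own library on these chromosomes.

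Normalised tags, the tags of a region scaled to 10000000 per library, came to 1327 in KO regions of the window (exact Poisson 95% interval 1269 to 1387) and 1019 in WT regions (972 to 1068). These intervals cover counting error only and leave out any spread between animals or preparations, since each genotype is 1 library. Tags are PCR reads without molecular identifiers, so any copies kept among them would make the intervals too narrow. The KO sum was 1.30 times the WT sum, whereas over all regions on chromosomes 1 to 19 and X the ratio was 0.80. With the higher-scoring 50% of regions the cluster ratio was 0.99 (889 in KO, 899 in WT). Such a sum moves with the length called, so the level per covered length was also computed. It was 19.3 normalised tags per kb in KO and 17.9 in WT at the cluster, against 17.3 in KO and 16.0 in WT over all regions. By region, the level ranged from 14.9 to 27.5 per kb in KO and from 13.0 to 22.9 per kb in WT, so the libraries overlapped.

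Most of what was covered in WT was covered in KO too. Bases inside regions of each library numbered 48900, which is 71.1% of the KO cover and 86.1% of the WT cover, against 39.1% of the KO cover and 29.1% of the WT cover genome-wide. KO alone covered 19867 bp and WT alone 7890 bp. The Jaccard index, the bases in both lists over those in either, was 63.8% at the cluster and 20.03% genome-wide. Overlap can grow with cover and region length, and both were high at the cluster. These comparisons with the whole genome are therefore not of like with like. Of the regions, 22 of 25 in KO and 26 of 28 in WT had a base in the other library.

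The spaces between the genes were covered more than the whole gene bodies. They were covered less than the first 2 kb of the bodies from the start site (77.6% in KO, 61.8% in WT). The 7 spaces were covered to 56.7% in KO and 46.7% in WT, and the 8 bodies to 38.9% in KO and 32.0% in WT. The most covered space was the 14410 bp from Gimap7 to Gimap1, at 83.2% in KO and 84.3% in WT. The space between Gimap5 and Gimap3 (10263 bp) held no region in either library. The largest differences were in the space from Gimap4 to Gimap6, with 62.4% in KO and 29.8% in WT, and in that from Gimap9 to Gimap4, with 75.1% in KO and 47.7% in WT. The space from Gimap8 to Gimap9 had 58.5% in KO and 43.5% in WT. From Gimap6 onward the spaces differed little. The shares were 59.9% in KO and 59.7% in WT from Gimap6 to Gimap7, and 50.1% in KO and 48.9% in WT from Gimap1 to Gimap5. Outside the cluster, the 20 kb before Gimap8 were covered to 29.8% in KO and 25.5% in WT, and the 20 kb after Gimap3 to 13.4% in KO and 10.9% in WT.

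All 8 members held a region in each library, which was the case for 45.1% of coding genes in KO and 49.4% in WT. Their median covered share, the percentage of the gene body inside regions, was 39.4% in KO and 25.6% in WT. Over the 11214 coding genes with a region in either library the median was 2.20% in KO and 3.21% in WT. The share was larger in KO for 6 members and smaller for 2, where 36.7% of the measured coding genes were larger and 59.7% smaller in KO. These counts were 3 larger and 5 smaller with the higher-scoring 50% of regions, and 7 larger and 0 smaller after dividing KO cover by the genome-wide ratio. With 20 percentage points as the size that counts, 2 members were higher in KO (1.93% of measured genes) and 0 lower (1.71%). The median difference was 6.30 points over the members and -0.69 points over the measured genes. Genes of the members' size lay nearer to them. In the members' length range, 47.8% of 2749 measured genes were larger in KO and 49.3% smaller, 6.0% higher by 20 points and 4.55% lower. Among the 1030 of these with a mean share of at least 10%, 50.7% were larger in KO, 16.0% higher by 20 points and 12.1% lower by 20 points. The members lie side by side and share regions, so they are not independent of each other.

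**Figure D2:**
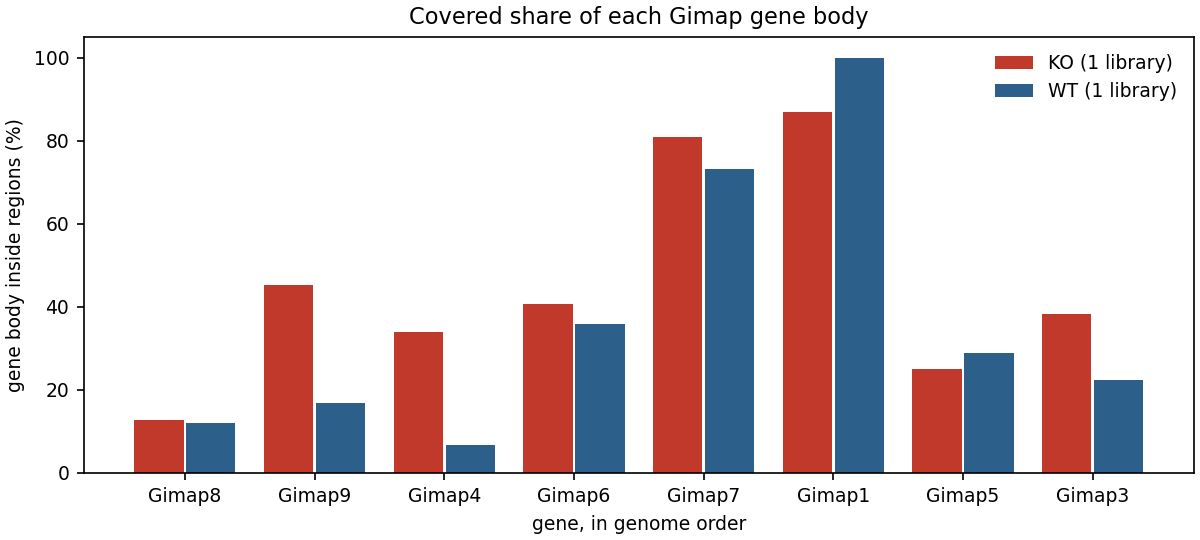
Percentage of each Gimap gene body inside H3K36me2 regions in KO (red) and WT (blue), 1 library per bar, genes in genome order. Gimap1 and Gimap7 are the most covered in each library, and the KO bar is the taller for all genes but Gimap1 and Gimap5.

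Gimap1, needed for the survival of mature T and B cells, was the most covered member. Its body (chr6:48739047-48743795, plus strand) was covered to 86.9% in KO and 100% in WT. In all, 7 coding genes in KO and 6 in WT were covered to 100%. In WT it lay inside the region of 11999 bp, which begins 7.21 kb before the gene. KO had 4 regions over the same stretch, and the last of them were 626 bp (chr6:48738875-48739501) and 3927 bp (chr6:48740124-48744051) long. The gap of 623 bp between them lay inside the gene body. The KO region of 626 bp spans the start site and had the highest level per length (27.5 normalised tags per kb) and the highest caller score (23.0) of the KO regions in the window. With regions under 1000 bp apart joined, Gimap1 was covered to 100% in each library.

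Gimap7, a GTPase that has been found at lipid droplets in human cells, was covered to 80.8% in KO and 73.1% in WT (chr6:48718621-48724636, plus strand). Each library had 2 regions there, the longer over the start site with 101 normalised tags (85.8 to 119) in KO and 80.1 (67.3 to 94.7) in WT. Almost all of the WT cover, 4355 of 4396 bp, was also covered in KO. The KO regions of Gimap7 had scores of 12.5 and 12.0, under the median of their list, so the higher-scoring 50% left 0% in KO against 73.1% in WT.

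Gimap9 and Gimap4 differed most between the libraries. Gimap9 (chr6:48676121-48679116, plus strand), the shortest member, was covered to 45.3% in KO and 16.8% in WT. Its start lay in a KO region of 5228 bp with 95.7 normalised tags (80.6 to 113), and WT had regions of 1224 and 2575 bp over the same block with 58.3 in all (47.4 to 70.9). The KO region reached 855 bp further into the gene. The lncRNA gene Gm46958 overlaps the start of Gimap9 and shares these regions.

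Gimap4, which acts in lymphocyte death, was covered to 33.9% in KO and 6.68% in WT (chr6:48684578-48692062, plus strand). It held 1 region in each library, of 2537 bp and 43.3 normalised tags (33.4 to 55.3) in KO and of 500 bp and 7.87 (4.25 to 13.3) in WT. The WT region lay wholly inside the KO region. Its 7.87 normalised tags were near the scaled WT threshold of 7.58. It dropped out at a minimum of 10 normalised tags and at the common tag threshold, which each left 33.9% in KO and 0% in WT. The score of the KO region was 12.0, equal to the tag threshold of its library, and with the higher-scoring 50% Gimap4 had 0% in KO and 6.68% in WT. Gimap4 was also the member whose start site was outside regions in KO and in WT. The KO region began 281 bp downstream of it.

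Gimap3 and Gimap5 encode membrane-anchored members that are closely related in sequence. Gimap3 (chr6:48764464-48770851, minus strand) was covered to 38.2% in KO and 22.4% in WT. A KO region of 4614 bp with 85.5 normalised tags (71.3 to 102) spanned its start, where WT had regions of 1073 and 2050 bp with 61.2 in all (50.1 to 74.1). After joining of regions under 1000 bp apart the shares were 38.2% in KO and 36.8% in WT. Gimap5 (chr6:48746197-48754200, plus strand) was covered to 25.1% in KO and 28.8% in WT, a direction that turned after scaling by the genome-wide ratio (33.7% in KO, 28.8% in WT), by a region of 2953 bp in KO and of 3440 bp in WT. These held 66.9 normalised tags (54.4 to 81.5) in KO and 70.5 (58.5 to 84.2) in WT. For each of these genes the cover sat at the 5′ end, and the stretch without regions runs through the rest of their bodies. How reads that map to several of these related genes were treated is not given, and their cover is uncertain to that extent.

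Gimap6, whose product binds an autophagy protein of the GABARAP family, was covered to 40.6% in KO and 35.8% in WT by 3 regions each (chr6:48701583-48708244, minus strand), and to 31.0% in KO and 35.4% in WT with the higher-scoring 50%. KO had more at its 5′ end, with 1019 of the first 2000 bp against 306 in WT. In the rest of the Gimap6 body KO had less, with 1689 bp against 2076 bp in WT. Gimap8 (chr6:48647186-48660875, plus strand), the longest member, encodes a protein with several GTP-binding domains. It was the least covered member in KO, at 12.7%, and had 12.0% in WT, with 6.74% in KO and 8.33% in WT when regions under 1000 bp were left out. Its start lay in a KO region of 2113 bp with 46.7 normalised tags (36.3 to 59.1) and in a WT region of 4149 bp with 72.6 (60.4 to 86.5). No region of either library lay in the 14408 bp that run from inside Gimap8 to the next space.

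**Figure D3:**
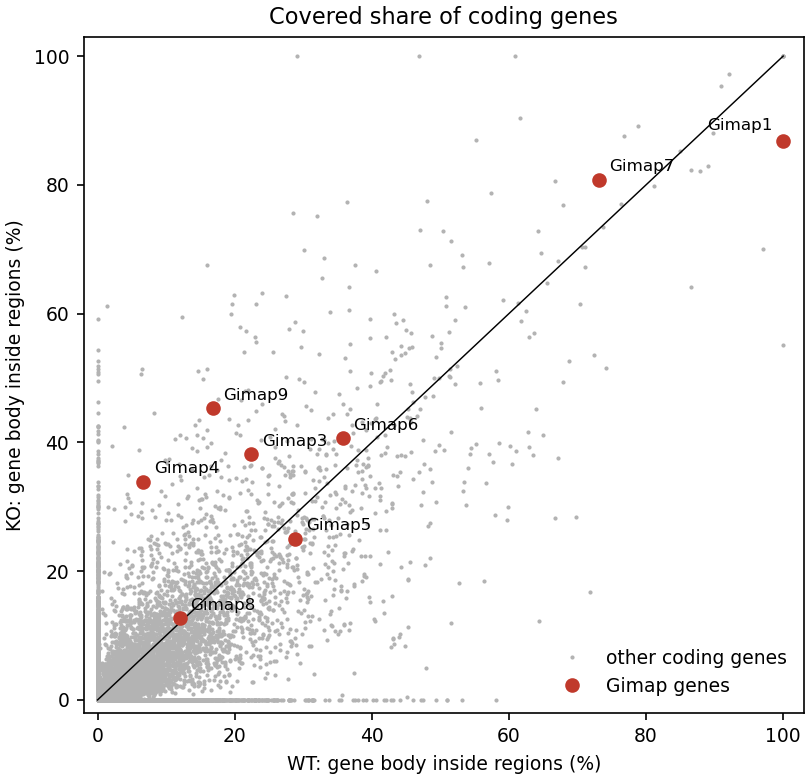
Percentage of the gene body inside regions in KO (vertical axis) against WT (horizontal axis), 1 point per coding gene of at least 2 kb with a region in either library, the 8 Gimap genes in red, with the line of equal shares. Gimap9 (45.3% in KO, 16.8% in WT) and Gimap4 (33.9% in KO, 6.68% in WT) lie farthest above the line and Gimap1 (86.9% in KO, 100% in WT) below it.

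The start sites of 7 of the 8 genes lay inside a region in KO, and those of the same 7 in WT, against 8.72% of 15242 coding genes in KO and 8.71% in WT. The first 2 kb of the bodies, counted from the start site, were covered to 77.6% in KO and 61.8% in WT, and the rest of the bodies to 23.4% in KO and 20.1% in WT. Over 14014 coding genes of at least 4 kb, the first 2 kb were covered to 4.93% in KO and 4.72% in WT, and the rest to 1.80% in KO and 2.48% in WT. Pooled over the members, the difference between the libraries was 15.7 points in the first 2 kb and 3.35 points in the rest. The members did not share 1 direction. The first 2 kb were more covered in KO at Gimap9, Gimap4, Gimap6 and Gimap3, and covered to 100% in each library at Gimap7 and Gimap5. They were less covered in KO at Gimap8 (46.85% in KO, 74.8% in WT) and Gimap1 (68.85% in KO, 100% in WT).

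**Figure D4:**
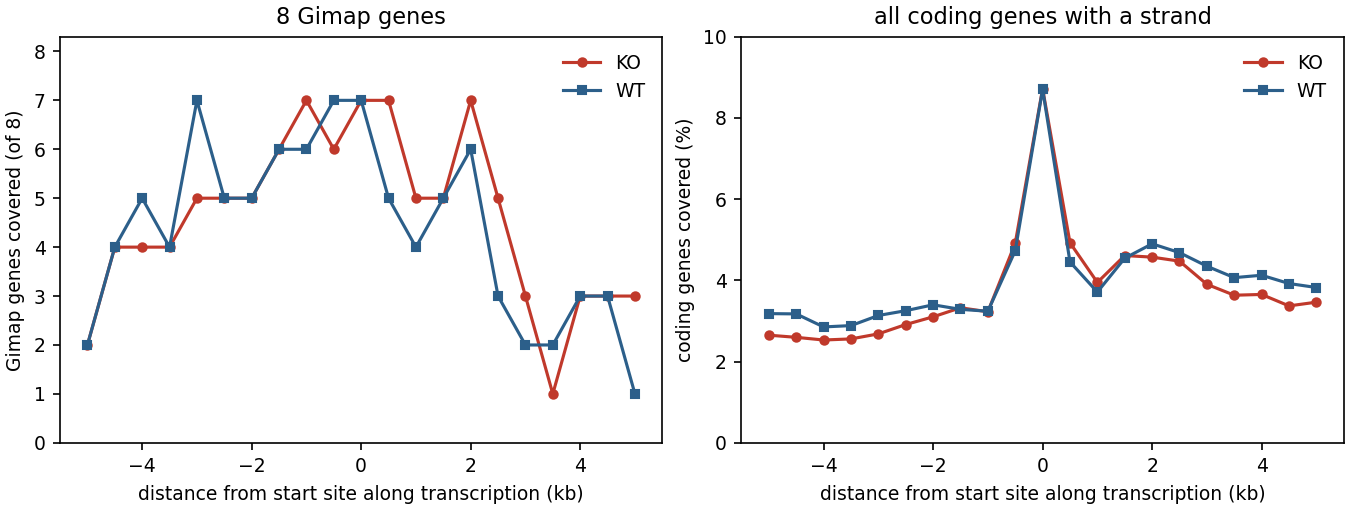
Left, number of the 8 Gimap genes covered by a region at each distance from the start site, in steps of 0.5 kb along the direction of transcription, in KO (red circles) and WT (blue squares). Right, percentage of 15242 coding genes covered at the same distances, which peaks at the start site at 8.72% in KO and 8.71% in WT. Windows of neighbouring Gimap genes overlap.

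Regions of either library joined into 24 blocks where they overlapped. Of these, 19 held regions of each library, 13 with more normalised tags in KO and 6 with fewer. These sums follow the length called in each library, so the level per kb of called length is given beside them. That level depends in turn on the scaled tag threshold, 8.11 per 500 bp peak in KO and 7.58 in WT. Over all regions it was also higher in KO, at 17.3 per kb against 16.0 per kb in WT. A higher KO level at a block is thus not particular to the cluster. At the start of Gimap8 the sum was smaller in KO (46.7 over 2113 bp, against 72.6 over 4149 bp in WT), while the level was 22.1 per kb in KO and 17.5 per kb in WT. At Gimap4 the sum was larger in KO (43.3 over 2537 bp, against 7.87 over 500 bp in WT), with a level of 17.1 per kb in KO and 15.7 per kb in WT. The block at AI854703, a pseudogene in the flank before Gimap8, held 49.0 over 3135 bp in KO and 13.1 over 633 bp in WT, but had the lower level in KO, at 15.6 per kb against 20.7 per kb in WT. In the space before the Gimap1 block the sums were 172 over 6515 bp in KO and 102 over 4946 bp in WT, or 26.4 per kb in KO and 20.7 per kb in WT. At the largest block, over Gimap1, they were 204 over 9853 bp in KO and 222 over 11999 bp in WT, or 20.7 per kb in KO and 18.5 per kb in WT.

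**Figure D5:**
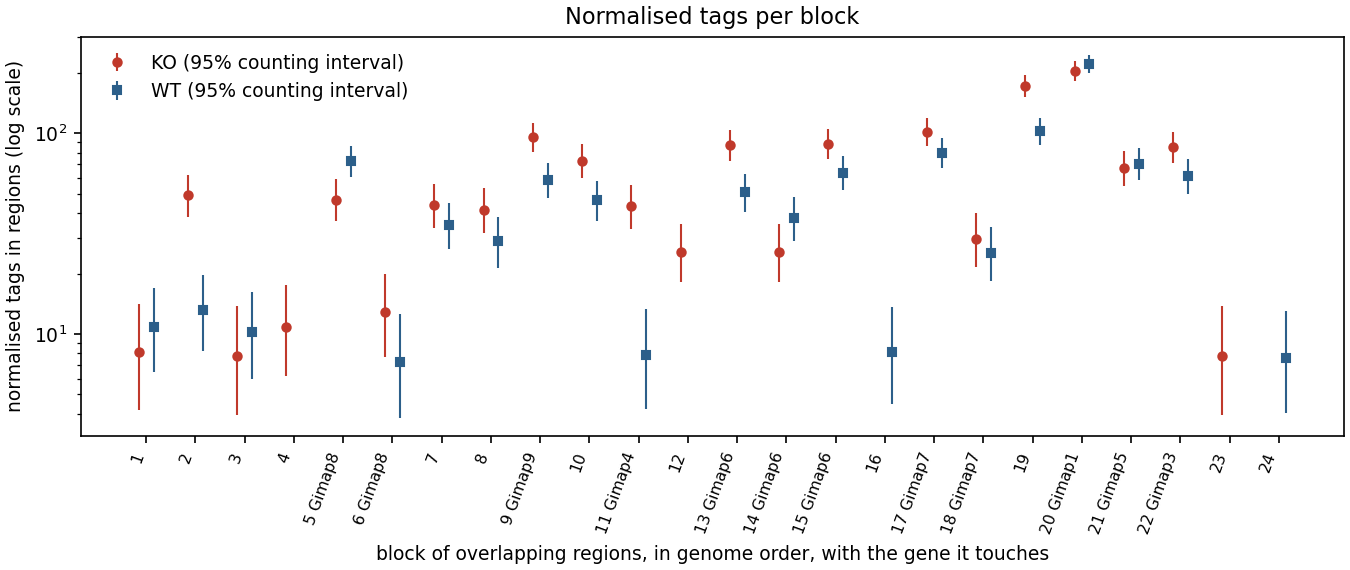
Normalised tags in KO (red circles) and WT (blue squares) regions of each of the 24 blocks, in genome order on a log axis, with exact Poisson 95% counting intervals; a library with no region in a block has no point. The sums follow the length called in each library. KO is above WT in most blocks from 7 to 19, and the points are close at the Gimap1 and Gimap5 blocks (20 and 21).

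The cover fell off beyond the window. AI854703, within the window in the flank before Gimap8, had 64.4% of its body inside regions in KO and 19.3% in WT. The pooled Gimap bodies had 38.9% in KO and 32.0% in WT, so in KO this pseudogene was the more covered. Of the 10 coding genes that lie outside the window within 130 kb of the cluster, 4 had the smaller share in KO and 2 the larger, 1 had the same share in each library and 3 held no region. Smaller in KO were Tmem176a (9.12% in KO, 28.3% in WT), Tmem176b (12.3% in KO, 21.0% in WT), Zfp775 (6.50% in KO, 10.9% in WT) and Lrrc61 (4.13% in KO, 9.33% in WT). Larger in KO were Rarres2 (15.9% in KO, 0% in WT) and Aoc1 (3.59% in KO, 0% in WT), each by 1 region of 500 bp. Atp6v0e2 was covered to 11.8% in each library.

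Genes of lymphocyte survival, some of whose products have been reported to bind GIMAP proteins, were less covered than the pooled members. Of 8 listed, all held a region in each library (45.1% of coding genes did in KO, 49.4% in WT), with pooled cover of 12.3% in KO and 14.9% in WT. The share was smaller in KO for 7 (59.7% of measured genes) and larger for 1 (36.7%), with a median difference of -3.68 points, against -0.69 points over the measured genes. Bcl2, an inhibitor of cell death, was covered to 13.6% in KO and 14.5% in WT, Bcl2l1, its relative, to 17.2% in KO and 20.7% in WT, and Il7r, the receptor chain for the survival cytokine IL-7, to 3.19% in KO and 3.52% in WT. Bak1, a killer protein of the same family, was the gene lower by 20 points (1.71% of measured genes), at 5.67% in KO and 29.5% in WT. Mcl1, another inhibitor, was the member larger in KO, at 13.5% against 8.23% in WT.

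The interferon-induced GTPases, a separate family of GTP-binding immune proteins also found in clusters, were less covered than the pooled Gimap bodies. Of 15 listed genes, among them Mx1 and Mx2, annotated as transcribed pseudogenes, 8 held a region in KO and 10 in WT, where 45.1% of coding genes did in KO and 49.4% in WT. Their pooled cover was 2.64% in KO and 3.78% in WT, above the 1.89% in KO and 2.53% in WT of all coding gene bodies. The share was smaller in KO for 7 (59.7% of measured genes) and larger for 4 (36.7%) of the 11 with a region in either library, with a median difference of -1.97 points. None differed by 20 points, which 1.93% of measured genes did upward in KO and 1.71% downward. Irgm2 had 12.8% in KO and 0% in WT, and Igtp, its neighbour, 0% in KO and 12.4% in WT.

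The coding genes of 5 to 30 kb whose shares in the 2 libraries lay nearest to those of the pooled Gimap bodies (38.9% in KO, 32.0% in WT) were Sirt6, Tbkbp1 and Susd2. Sirt6 was covered to 38.2% in KO and 32.0% in WT, at a distance of 0.64 points, Tbkbp1 to 38.2% in KO and 33.3% in WT, and Susd2 to 38.1% in KO and 33.3% in WT (1.57 points). This likeness rests on 2 values per gene among 9274 genes.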

How the data were processed

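Per the labels, 1 KO and 1 WT library of splenic Treg cells were made with an in situ ChIP kit and a transposase index kit. The mm10 build and the tools deepTools, HOMER, Picard, Bowtie2 and Trim Galore are listed in the submitters' processing notes. Per the file headers, the authors called regions per library with HOMER findPeaks in histone style without a control, stitching 500 bp peaks. The deposited signal is a normalised tag count per region, scaled to 10000000 tags. A genome-wide change in the absolute amount of the mark cannot be read from it. The deposited findPeaks score was used as a filter only, and the deposited clonal fold ratio was not used.

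Cover was computed with pandas 2.3.3, numpy 2.4.6 and scipy 1.17.1 under Python 3.11.15, with lengths as end minus start and at least 1 bp counted as overlap. Genes came from the RefSeq table of GRCm38.p6, which gives no exons. Sequences are from RefSeq on the same build. The code was tested on simulated data, made by taking all regions over 200 seeded genes, each well covered in WT, out of the WT list. It called 200 lower and changed 0 untouched genes of 19186. The seeding fixes this outcome, so the test checks the arithmetic only. Members and lists were chosen with earlier results of these data known. Named by rule were the 8 members, genes of the lists, neighbours in the window and the 3 coding genes nearest in cover. The coding genes within 130 kb were added after their values were seen. Alternatives were filters on length, score and tags, a common threshold, joining, other windows, overlap and scaling. Results of 1 listed gene are not reported here.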

Additional observations from a re-analysis of the deposited data

How the results depend on the processing

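The larger KO cover of the cluster kept its direction under 8 of 9 alternatives, and the ratio of normalised tags, KO over WT, under 6 of 7. Not all of these alternatives could turn the direction. Dividing KO cover by the genome-wide ratio, 0.743, can only raise it. The common tag threshold took out WT regions only, and requiring 50% of a region inside the window left both values unchanged. The exception for cover and for tags was the higher-scoring 50% of regions, with a difference of -2.61 points and a ratio of 0.99 (889 in KO, 899 in WT). With this filter 3 members were larger and 5 smaller in KO, and the differences turned to -6.68 points at Gimap4, -4.37 at Gimap6 and -73.1 at Gimap7. The filter removed 49.4% of all KO and 46.5% of all WT regions, and 33.1% of KO and 28.0% of WT regions of at least 4 kb; the cause of the turn was not tested. Dividing KO cover by the genome-wide ratio of covered lengths gave a cluster difference of 21.8 points, 0 members smaller in KO and 4.89 points at Gimap5. The ratio of region numbers, 0.89 for KO over WT, became 1.06 with regions of at least 1000 bp and 1.0 (25 in each) at the common tag threshold, which removes WT regions of 500 bp. Gimap8 had -1.58 points with regions of at least 1000 bp, -2.99 after joining and -5.52 with 5 kb flanks, so its direction is not settled. With at least 50% of a region required inside the gene, Gimap6 had -4.74 points, Gimap9 0 in each library and Gimap1 86.9, since the long WT region over Gimap1 lies mostly outside it. The difference at Gimap3 stayed positive in 8 of 8 alternatives, from 1.41 to 28.9 points. Dividing by the genome-wide ratio was not run for tags and region numbers, which are not lengths, nor joining for tags, nor 50 kb flanks for single genes. No paired analysis was possible because each genotype has 1 library. Depth limits the shorter regions, which lie near the tag threshold of each list.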
